A study of Mus musculus with 35 samples.

Results

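Genes of myelin and of the cells that make it were followed through hippocampal RNA of mice with and without experimental temporal lobe epilepsy. They were Mbp, Mobp, Mal, Mog, Mag, Cldn11, Opalin, Cnp and Ermn, taken by symbol as 9 of the 32544 genes in the count tables, because they are textbook markers of mature oligodendrocytes. All 9 had reads in every library used and passed the filter on low counts in every comparison.

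Myelin is the stack of membrane that an oligodendrocyte wraps around axons of the central nervous system, so that action potentials jump from node to node. Its cytoplasmic faces are held together by basic proteins, its layers are sealed by adhesion and tight junction proteins, and its narrow cytoplasmic channels are kept open by enzymes and cytoskeletal linkers. In the hippocampus myelinated axons run mainly in the alveus, the fimbria and the perforant path. N6-methyladenosine (m6A) is a methyl mark on adenosines of messenger RNA, and an antibody against it pulls down the marked RNA molecules.

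The animals were adult male C57BL/6JOlaHsd mice that received kainic acid (KA), a glutamate receptor agonist, into the amygdala to induce status epilepticus, followed by lorazepam, and controls that received phosphate-buffered saline (PBS) by the same route. Mice were killed at 24 hours, the acute stage, or at 2 weeks, the chronic stage of spontaneous seizures. From each hippocampal RNA, total RNA was sequenced as an input library or RNA pulled down by the m6A antibody as an m6A library, and each of the 13 mice with an input library used here also gave an m6A library. The m6A libraries came from 3 PBS and 5 KA mice at 24 hours and from 5 PBS and 6 KA mice at 2 weeks. Input libraries with at least 100000 counts came from 1 PBS and 3 KA mice at 24 hours and from 3 PBS and 6 KA mice at 2 weeks. Every library was 1 mouse, so P values of KA against PBS measure the spread between mice of a group. In input at 24 hours the spread was shared over all input groups, since there was 1 control. Where m6A and input libraries were fitted together, the main fit treated 2 libraries of 1 mouse as independent. Values are CPM, counts per 1000000 counts of a library's effective size, scaled within an assay. They are given for every mouse of a group, except that the 6 KA mice at 2 weeks are given by their lowest, median and highest value throughout.

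Total counts ran from 1652933 to 34564536 in the m6A libraries and from 3057578 to 12694434 in the 13 input libraries used, while 3 input libraries under 100000 counts, all at 24 hours, were left out. Mitochondrial transcripts made up over 15% of counts in 3 of 32 libraries, namely both libraries of KA mouse 8 at 24 hours (17.4% of input and 16.4% of m6A counts) and the m6A library of KA mouse 6 at 2 weeks (17.5%), against at most 11.1% in the others. The m6A libraries also fell into 3 sets by a number before the mouse number in the column names, whose meaning is not given. Where a column name did not state the assay, the library was taken as m6A if it carried such a number and as input if it did not. Within 1 set, both treatments were present only for 2 PBS and 2 KA mice at 24 hours (set 4) and for 3 PBS and 3 KA mice at 2 weeks (set 5). Input libraries formed 2 sets, by whether the column name began with Input. At 2 weeks KA mice 6, 7 and 9 were in the set beginning with Input, which held no PBS library used here. Treatment and set therefore partly coincided. These libraries had 7822429 to 8017282 counts, against 3057578 to 5720858 in the other 2-week input libraries. Markers of Schwann cells, which make the myelin of peripheral nerves, summed to 9.50 to 41.3 CPM over 7 genes in any library, whereas the 9 myelin genes summed to between 595 and 2651 CPM.

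Compared per 1000 bases of transcript, the myelin genes kept nearly the same order of level in both assays. In input libraries of PBS mice at 2 weeks, Mobp stood at 316 ± 48.4 CPM per 1000 bases (SD, n = 3) and Mbp at 239 ± 27.2. Mal, Cnp and Ermn followed at 48.4 ± 6.23, 30.6 ± 3.47 and 28.7 ± 3.69. Mag, Mog, Cldn11 and Opalin were the lowest, at 10.8 ± 3.47, 10.4 ± 1.40, 8.75 ± 1.46 and 3.18 ± 0.35. Cnp and Ermn overlapped over these 3 mice, and so did Mag with Mog and Mog with Cldn11, whereas Mobp lay above Mbp, Mbp above Mal, Mal above Cnp, Ermn above Mag and Cldn11 above Opalin in every mouse. In the m6A libraries of the 5 PBS mice the 9 genes ran from 483 ± 137 CPM per 1000 bases for Mobp to 4.84 ± 0.61 for Opalin, with Cldn11 above Mog.

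No myelin gene passed the test for a difference between KA and PBS mice at an adjusted P of 0.05 in edgeR, in either assay or at either time. The background was as low. Among m6A libraries edgeR called 0.00607% of 16470 genes tested at 24 hours and 0.0% of 16157 at 2 weeks, and in input libraries 0.0% of 17644 and 0.0% of 13752. At an unadjusted P under 0.05, 1 of the 9 myelin genes was found in m6A libraries at 24 hours against 5.31% of all genes, and 0 of 9 at 2 weeks against 5.01%. The same count in input libraries was 2 of 9 at 24 hours against 9.23%, and 1 of 9 at 2 weeks against 14.1%. DESeq2 called none of the 9 in any of these comparisons, and limma's voom with quality weights called 1 in m6A libraries at 24 hours (Cldn11), 0 at 2 weeks, 1 in input at 24 hours (Mal) and 1 in input at 2 weeks (Cldn11), where it called 6.81%, 5.99% and 2.6% of all genes in the 3 comparisons with a call. Since the RNA came from whole hippocampus, fewer oligodendrocytes and less RNA per oligodendrocyte cannot be told apart in any of these values.

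**Figure D1:**
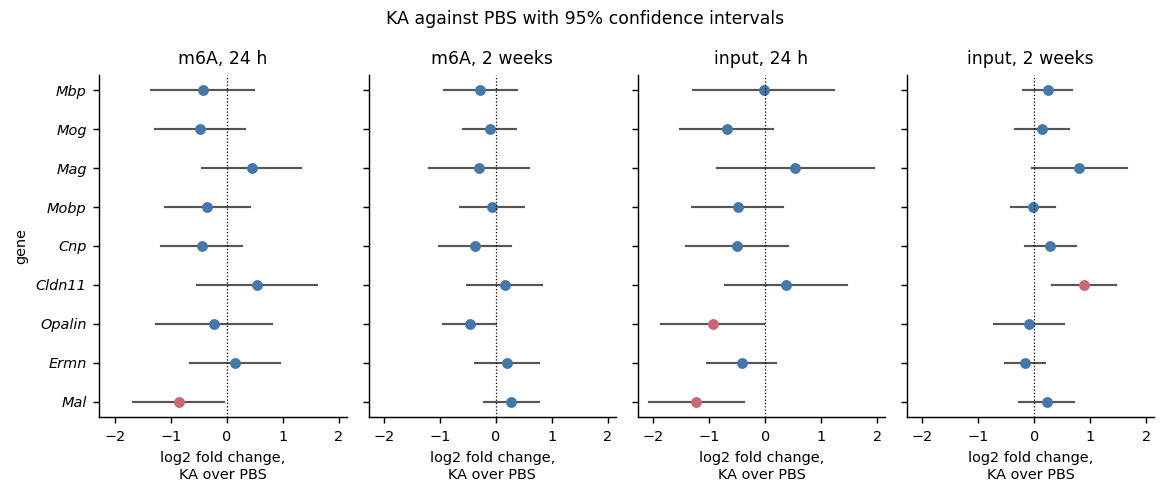
Log2 fold change of KA over PBS mice for each of the 9 myelin genes (rows), in m6A and input libraries at 24 hours and 2 weeks, with lines for the 95% confidence interval of the edgeR fit and red points for an unadjusted P under 0.05. Mal has the lowest value at 24 hours in both assays (-0.86 and -1.23), and Cldn11 the highest in input libraries at 2 weeks (0.89).

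The 9 genes did not share 1 direction. Of the 9, in m6A libraries at 24 hours, 3 had a log2 fold change above 0 and 6 below, with a median of -0.35 where all genes tested had a median of 0.083. At 2 weeks the m6A counts were again 3 above and 6 below, with a median of -0.11 against -0.0013. This direction turned with the library sets, since with set as a block 7 of the 9 lay above 0 with a median of 0.19, and within set 5 there were 7 with a median of 0.21. At 24 hours the set block left 4 of 9 above 0 with a median of -0.0032, and medians without 1 library ran from -0.61 without PBS mouse 71 to -0.082 without PBS mouse 1. In input libraries 2 were above and 7 below at 24 hours, with a median of -0.49 against 0.27 for all genes, and 6 above and 3 below at 2 weeks, with a median of 0.22 against 0.017. The input median at 2 weeks was 0.0071 without KA mouse 21, below the 0.011 of all genes in that fit, and 0.053 with library GC content as a covariate, and at 24 hours it was -0.27 without KA mouse 8 and -0.78 without KA mouse 67. Scaling by total counts moved the median of all genes in input at 24 hours to -0.038 and that of the 9 genes to -0.77, and left 2, 6, 3 and 3 of the 9 above 0 in input at 24 hours and 2 weeks and in m6A at 24 hours and 2 weeks. Mag and Cldn11 were above 0 in both assays at 24 hours and in input at 2 weeks, while Mal, Mog, Mobp, Cnp, Opalin and Mbp were below 0 in both assays at 24 hours. In the m6A libraries at 24 hours this direction depended on the tool for 5 of those 6, since limma's voom with quality weights put Mbp at 0.075, Mog at 0.19, Mobp at 0.35, Cnp at 0.032 and Opalin at 0.33, and kept Mal below 0 at -0.17. The values of PBS and KA mice overlapped for all 9 genes in m6A libraries at both times, where 4.61% and 0.637% of all genes tested did not overlap.

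Mal, a small membrane protein that sorts lipids and proteins into compact myelin, gave the lowest values of KA mice relative to PBS mice at 24 hours. In m6A libraries it measured 139, 162 and 425 CPM in PBS mice and 163, 125, 139.8, 111 and 128 in KA mice. Of the 5 KA mice 3 lay below all PBS mice, and the mean was 133 ± 19.4 CPM against 242 ± 159 (SD). The log2 fold change was -0.86 (SE 0.37, adjusted P = 0.893 in edgeR, 95% CI -1.67 to -0.041). The size rested on a single control: without PBS mouse 1, which had 425 CPM and was the only 24-hour library of its set, the value was -0.17, and within set 4 it was -0.26.

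At 24 hours the only PBS mouse among the input libraries was again mouse 1, so input adds no further control for Mal. Mouse 1 had 257 CPM, above the 155, 127 and 123 CPM of the PBS input libraries at 2 weeks. The KA mice at 24 hours had 152, 94.6 and 81.9. All 3 KA mice lay below mouse 1. The same held for 6 of the 9 myelin genes (Mog, Mobp, Cnp, Opalin, Ermn and Mal), where 40.4% of all genes tested did not overlap between 3 libraries and 1. The fitted log2 fold change of Mal was -1.23 (SE 0.39, adjusted P = 0.390 in edgeR, 95% CI -2.07 to -0.38), with the lone control assumed to vary like the other groups. Limma's voom gave -1.15 with an adjusted P of 0.0459, and without KA mouse 8 edgeR gave -1.06 (adjusted P = 0.149).

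At 2 weeks the mean of Mal was not lower in KA than in PBS mice in either assay. In m6A libraries PBS mice had 248, 222, 260.4, 194 and 129 CPM and the KA mice 149, 266 and 331, so that 4 of 6 KA mice lay above all PBS mice. In input libraries PBS mice had 155, 127 and 123 CPM and KA mice 111, 142 and 260.3. The log2 fold changes were 0.28 in m6A and 0.22 in input, with intervals that held 0. Tested as an interaction, the KA effect on Mal in m6A libraries was 1.13 higher on the log2 scale at 2 weeks than at 24 hours (SE 0.42, adjusted P = 1.00 in edgeR, 95% CI 0.26 to 2.00), the only 1 of the 9 with an unadjusted P under 0.05, where 2.45% of all genes had one and 0.00573% were called. Without PBS mouse 1 that difference was 0.44.

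**Figure D2:**
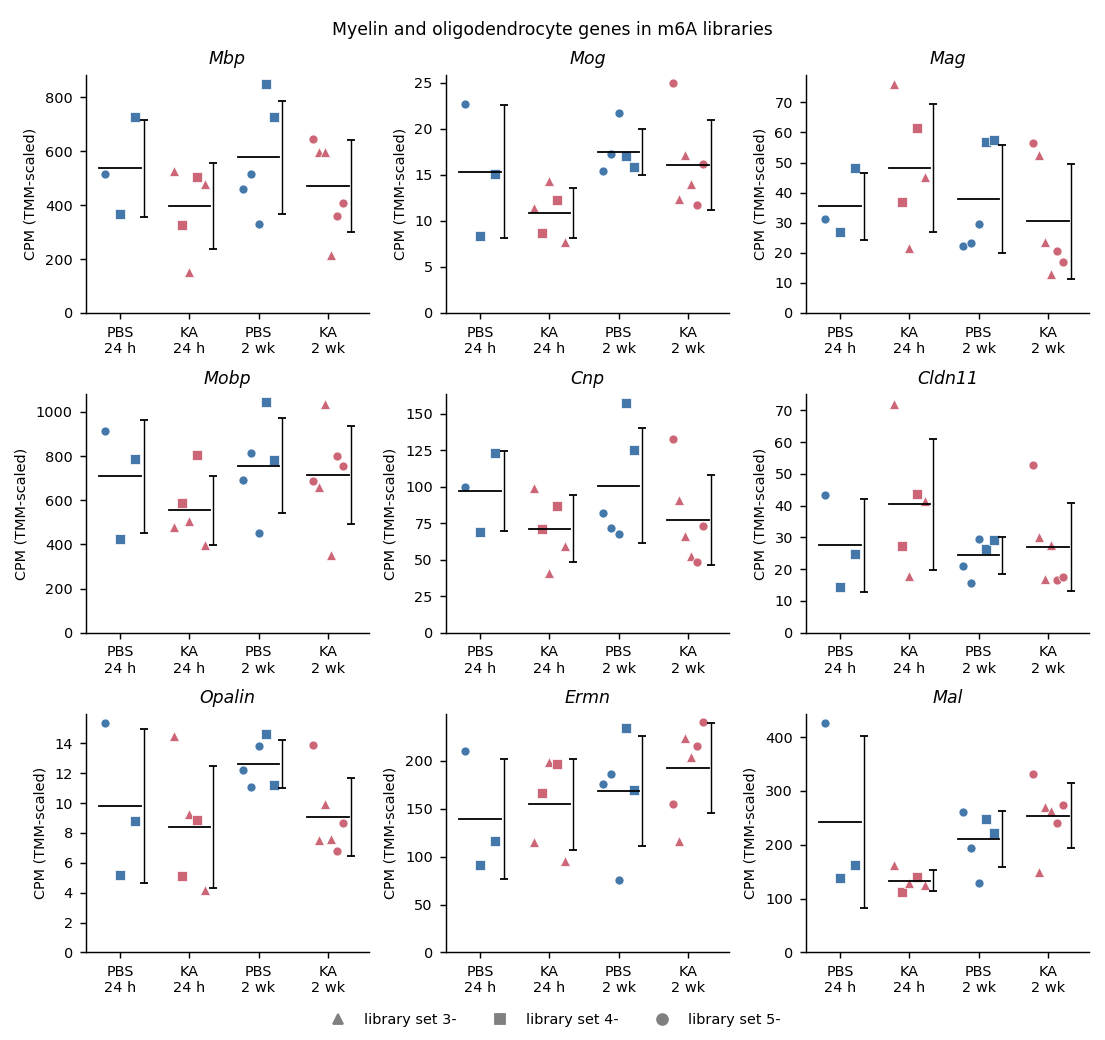
CPM of the 9 myelin genes in each m6A library (vertical axis, CPM on TMM-scaled library sizes), in PBS and KA mice at 24 hours and 2 weeks, with point shape for the library set, a bar for the mean and a whisker for the SD. PBS and KA mice overlap for all 9 genes at both times, and Mal in the PBS mice at 24 hours runs from 139 to 425 CPM.

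Mbp encodes the basic protein that zips the cytoplasmic faces of myelin together. It measured, in m6A libraries at 24 hours, 369, 726 and 516 CPM in PBS mice and 528, 477, 506, 325 and 151 in KA mice. The lowest of these, 151, was KA mouse 8, which was also the lowest of its group in input at 100.1 CPM. The log2 fold change in m6A libraries was -0.43 with mouse 8 and -0.21 without it, and in input libraries -0.023 with it and 0.39 without it, so the direction in input turned on 1 mouse. At 2 weeks PBS mice had 850.3, 729, 460.4, 518 and 332 CPM in m6A and 553, 546 and 448 in input, and KA mice had 215, 503 and 647 in m6A and 386, 596 and 825 in input. Groups overlapped in both assays, with log2 fold changes of -0.28 and 0.23.

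Mobp, another basic protein of compact myelin and the most abundant of the 9 per length, overlapped between groups throughout the m6A libraries. It had 423, 787 and 913 CPM in PBS mice and 479, 398, 807, 589.7 and 505 in KA mice at 24 hours, then 1045, 781, 692, 814 and 450.0 in PBS mice and 351, 719.6 and 1034 in KA mice at 2 weeks. Its log2 fold changes of -0.35 and -0.073 had intervals that held 0. In input libraries the 24-hour control had 481 CPM and the KA mice 466, 333 and 227, and at 2 weeks PBS mice had 465, 581 and 439 and KA mice 352, 498 and 586. The 2-week difference of -0.032 was the closest to 0 of the 9 in that comparison.

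Cldn11 encodes the claudin that forms the tight junctions between myelin layers, and it had the highest value of the 9 in KA relative to PBS mice in m6A libraries at 24 hours and in input at 2 weeks. In input libraries at 2 weeks PBS mice had 22.6, 16.7 and 17.6 CPM and KA mice 24.9, 30.4 and 59.2. All 6 KA mice lay above all 3 PBS mice, a separation that 7.51% of all genes tested showed in that comparison and 1 of the 9 myelin genes. Means were 35.2 ± 12.9 CPM against 18.98 ± 3.16 (SD), a difference of 0.89 on the log2 scale (SE 0.27, adjusted P = 0.266 in edgeR, 95% CI 0.31 to 1.46). Limma's voom called it at 0.75 (adjusted P = 0.0396), whereas with the GC content of each library as a covariate edgeR gave 0.46 (adjusted P = 0.717), and GC content was 47.2% to 49.2% in KA against 46.9% to 47.7% in PBS libraries. The edgeR value was 1.16 with library set as a block and 1.16 within the set that held both treatments, and neither passed the adjusted threshold.

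The same gene at 24 hours had 14.5, 24.6 and 43.5 CPM in m6A libraries of PBS mice and 72.1, 41.5, 43.5, 27.2 and 17.8 in those of KA mice. The highest KA value was mouse 67 and the lowest mouse 8, and the groups overlapped. Its difference on the log2 scale was 0.55 (SE 0.48, adjusted P = 0.983 in edgeR), between 0.22 without KA mouse 67 and 1.04 without PBS mouse 1, and limma's voom gave 1.25 with an adjusted P of 0.0192. In input libraries the control had 42.6 CPM and the KA mice 79.1, 57.2 and 29.6. At 2 weeks the m6A libraries gave 26.4, 29.2, 21.0, 15.7 and 29.4 CPM in PBS mice and 16.6, 22.5 and 52.8 in KA mice, a log2 fold change of 0.15.

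Mag, the adhesion molecule on the innermost myelin layer that faces the axon, had values that varied alongside those of Cldn11. In input libraries at 2 weeks PBS mice had 29.3, 19.8 and 15.7 CPM and KA mice 18.7, 32.0 and 71.9, with 3 of 6 KA mice above all PBS mice. The log2 fold change was 0.80 (SE 0.38, adjusted P = 0.372 in edgeR, 95% CI -0.036 to 1.64). It was 0.16 with library GC content as a covariate and 1.198 within the column set that held both treatments. Mag at 24 hours had, in m6A libraries, 27.0, 48.2 and 31.1 CPM in PBS mice and 76.0, 45.1, 61.3, 36.8 and 21.6 in KA mice, and in input 32.4 in the control and 64.7, 52.5 and 24.8 in KA mice. The 2-week m6A libraries gave 56.9, 57.4, 22.3, 23.1 and 29.5 CPM in PBS mice and 12.8, 22.0 and 56.3 in KA mice, a log2 fold change of -0.30 that became 0.35 within set 5.

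The upstream windows of Mag and Cldn11 are printed because the 2 transcripts took a similar course over the input libraries (Pearson r = 0.92, Spearman rho = 0.88). Each is the 250 bases before the RefSeq start in mouse GRCm38.p6, 5′ to 3′ on the gene's strand, with matches to motifs of oligodendrocyte transcription factors in capitals. The motifs searched on both strands were ACAAAG (SOX factors), CTGGNAC (MYRF) and CAGCTG (E-box). The Mag window is chr7:30914923-30915172 on the minus strand, and the Cldn11 window is chr3:31149670-31149919 on the plus strand.
Mag: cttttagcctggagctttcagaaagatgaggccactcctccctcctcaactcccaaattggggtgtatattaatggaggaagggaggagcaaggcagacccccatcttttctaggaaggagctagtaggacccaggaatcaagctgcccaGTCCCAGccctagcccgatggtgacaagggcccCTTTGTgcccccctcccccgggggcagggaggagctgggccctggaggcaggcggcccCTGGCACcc
Cldn11: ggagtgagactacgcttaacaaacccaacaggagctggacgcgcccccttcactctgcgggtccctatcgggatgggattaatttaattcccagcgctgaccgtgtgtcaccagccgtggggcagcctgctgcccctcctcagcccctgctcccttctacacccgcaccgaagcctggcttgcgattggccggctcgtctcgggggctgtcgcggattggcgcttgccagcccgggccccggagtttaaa
Mag held 1 SOX match 67 bases before the start and 2 MYRF matches 100 and 9 bases before it, and no match lay in the Cldn11 window. Windows were used for 8 of the 9 genes, all but Mbp, and those of 1 chromosome were left out of the mouse windows. SOX matches were in 4 of these 8 (Mag, Mobp, Cnp and Opalin) against 16.5% of 32851 mouse windows, MYRF matches in 3 of 8 (Mog, Mag and Cnp) against 16.1%, and E-box matches in 0 of 8 against 13.0%.

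**Figure D3:**
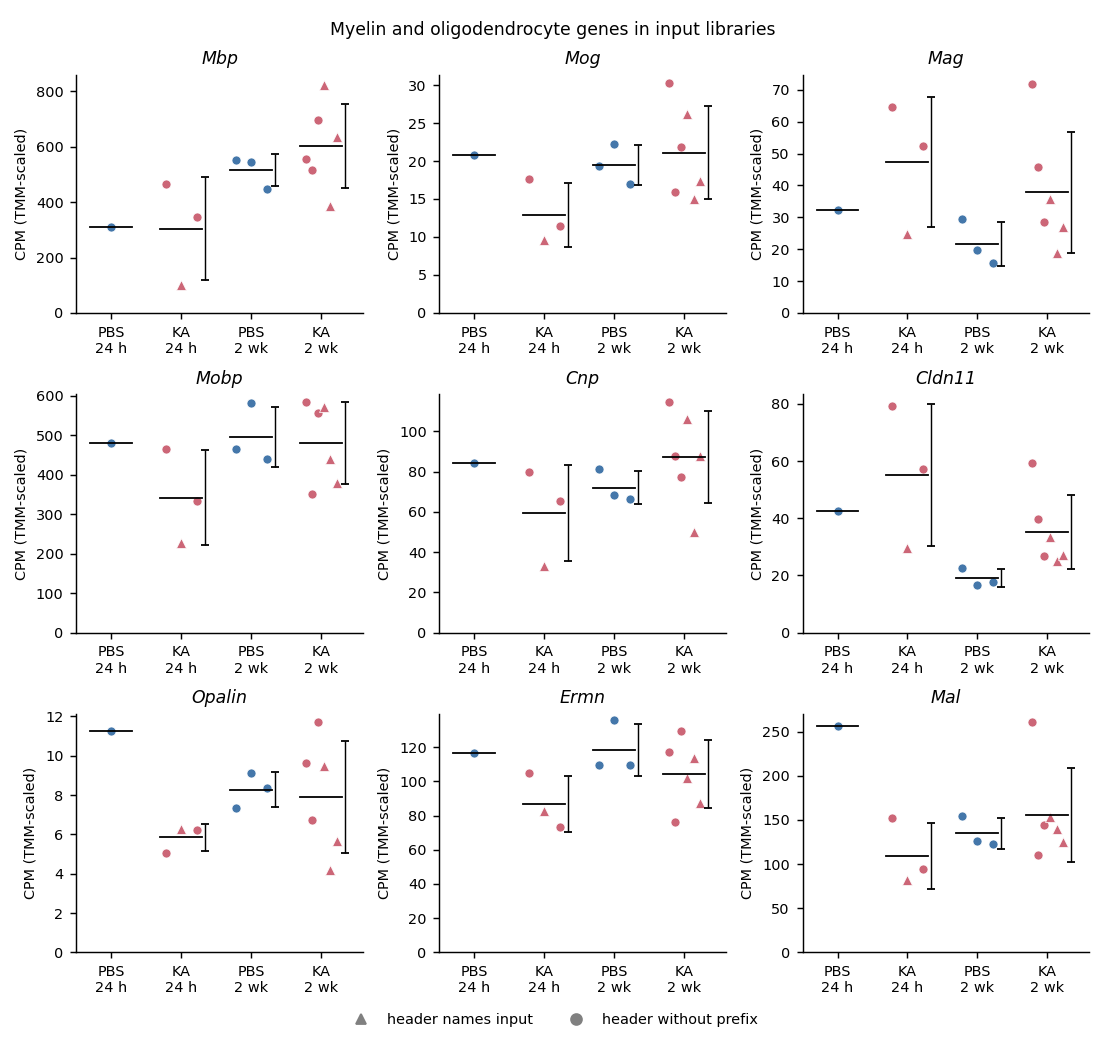
CPM of the 9 myelin genes in each input library with at least 100000 counts (vertical axis, CPM on TMM-scaled library sizes), in PBS and KA mice at 24 hours and 2 weeks, with point shape for the kind of column name, a bar for the mean and a whisker for the SD. All 6 KA mice lie above all 3 PBS mice for Cldn11 at 2 weeks, and at 24 hours there is a single PBS library.

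Mog, an immunoglobulin-like protein on the outermost myelin surface, had low levels. Its m6A libraries at 24 hours measured 8.31, 15.1 and 22.7 CPM in PBS mice and 11.4, 7.72, 12.2, 8.70 and 14.4 in KA mice. At 2 weeks it measured 17.0, 15.9, 15.4, 17.3 and 21.7 in PBS mice and 11.7, 15.1 and 25.1 in KA mice. Groups overlapped at both times. In input libraries the 24-hour control had 20.7 CPM and the KA mice 17.6, 11.4 and 9.66, a log2 difference of -0.69 (SE 0.39, adjusted P = 0.63 in edgeR). At 2 weeks PBS mice had 19.3, 22.2 and 16.9 CPM and KA mice 14.97, 19.6 and 30.3, and the log2 fold change was 0.13.

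Opalin, a transmembrane glycoprotein of central myelin, was the least abundant of the 9. At 2 weeks the m6A libraries of PBS mice had 14.7, 11.2, 12.2, 11.1 and 13.8 CPM and KA mice 6.81, 8.12 and 13.9. Of 6 KA mice 5 lay below all PBS mice, the exception being mouse 21. The log2 fold change was -0.47 (SE 0.22, adjusted P = 0.875 in edgeR, 95% CI -0.95 to 0.0055). At 24 hours the m6A libraries had 5.20, 8.78 and 15.4 CPM in PBS mice and 14.5, 4.15, 8.90, 5.09 and 9.27 in KA mice, and the direction of -0.22 became 0.26 without PBS mouse 1. In input at 24 hours the control had 11.3 CPM and KA mice 5.05, 6.24 and 6.28, a log2 difference of -0.94 (SE 0.43, adjusted P = 0.53 in edgeR, 95% CI -1.86 to -0.026). At 2 weeks input values were 7.33, 9.12 and 8.38 CPM in PBS mice and 4.18, 8.09 and 11.7 in KA mice, which enclosed the PBS values.

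Cnp encodes a phosphodiesterase that keeps the cytoplasmic channels of myelin open. Its m6A values were 68.8, 123 and 99.5 CPM in PBS mice and 98.9, 59.4, 86.6, 71.1 and 40.7 in KA mice at 24 hours. At 2 weeks they were 158, 125, 82.2, 71.4 and 67.4 in PBS mice and 48.2, 69.9 and 133 in KA mice, with log2 fold changes of -0.44 and -0.37 whose intervals held 0. The 2-week direction became 0.21 within set 5. Input values were 84.0 CPM in the control and 79.9, 65.2 and 33.2 in KA mice at 24 hours, then 81.4, 68.1 and 66.5 in PBS mice and 50.0, 87.7 and 114 in KA mice at 2 weeks.

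Ermn is an actin-binding protein of late oligodendrocyte processes. At 24 hours it had 91.8, 116 and 210.5 CPM in PBS mice and 115, 94.97, 197, 167 and 199 in KA mice, and at 2 weeks 235, 169.6, 176, 186 and 75.7 in PBS mice and 117, 209.7 and 240.4 in KA mice. The log2 fold changes were 0.15 and 0.20, and -0.077 without PBS mouse 71 at 24 hours and -0.012 without PBS mouse 4 at 2 weeks. Within set 4 at 24 hours Ermn had 197 and 167 CPM in the 2 KA mice and 91.8 and 116 in the 2 PBS mice. Its log2 difference was 0.80 with an adjusted P of 0.0694 in edgeR, and that of Cldn11 was 0.86 (adjusted P = 0.236 in edgeR). That fit called 356 of 16903 genes tested, and 3265 had an unadjusted P under 0.05. The share of all genes that separate between 2 and 2 mice was not computed, so nothing is drawn from the order of these mice. Input values of Ermn lay on the other side. At 24 hours the control had 117 CPM and the KA mice 105, 73.0 and 82.6. At 2 weeks PBS mice had 109, 136 and 109.8 and KA mice 76.1, 108 and 129. The log2 fold changes in input were -0.42 and -0.17.

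Single libraries stood high or low over many of the genes at once. The m6A library of PBS mouse 71 was the lowest of the 24-hour controls for 9 of 9 genes, and that of PBS mouse 1 the highest for 6. Among KA mice at 2 weeks, mouse 21 was the highest for 6 genes in input and for 7 in m6A. KA mouse 8, with its large mitochondrial share, was the lowest of the 24-hour KA mice for 7 genes in input and 4 in m6A, while KA mouse 67 was the highest for 8 and 6.

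The ratio of Cldn11 to Mal within a library does not depend on the scaling between libraries, and this pair was chosen after its values were seen, so the ratio is a description. In input libraries the log2 ratio of counts was -2.59 in the 24-hour control and -0.94, -0.73 and -1.47 in the KA mice. At 2 weeks it was -2.78, -2.92 and -2.81 in PBS mice, and -2.48, -2.20 and -1.48 as the lowest, median and highest of the KA mice. No KA value overlapped a PBS value in input at either time. The pair joins the gene with the highest difference in input at 2 weeks to the one with the lowest at 24 hours. Of all 36 pairs among the 9 genes, 61.1% did not overlap in input at 24 hours, where there was 1 control, and 11.1% did not at 2 weeks, against 8.33% and 2.78% in m6A libraries. The pairs that separated in input at 2 weeks were those of Cldn11 with Mog, Cnp, Ermn and Mal, so they share the separation of Cldn11. Pairs of other genes were not examined. In m6A libraries at 24 hours the log2 ratio of Cldn11 to Mal was -3.26, -2.72 and -3.29 in PBS mice and -1.18, -1.59, -1.68, -2.04 and -2.85 in KA mice, with 4 of 5 KA mice above all PBS mice. At 2 weeks the m6A groups overlapped, with -3.23, -2.92, -3.63, -3.62 and -2.13 in PBS mice and -3.99, -3.55 and -2.30 in KA mice.

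**Figure D4:**
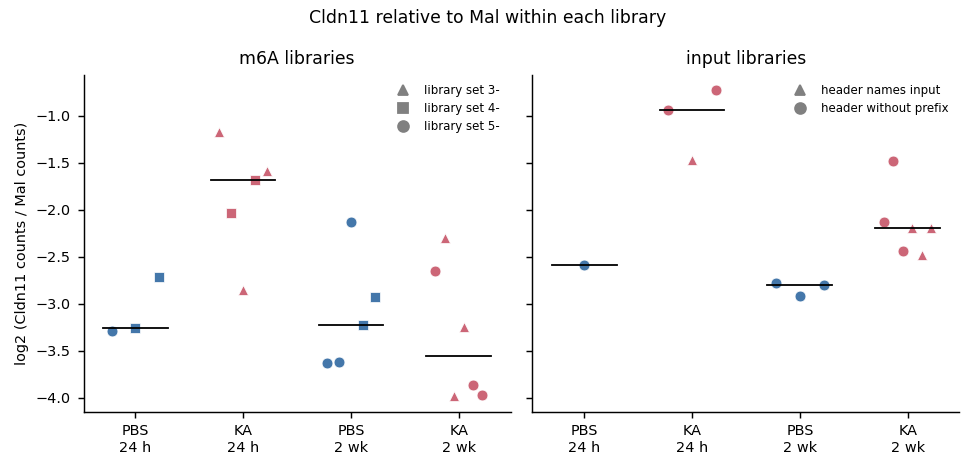
Log2 ratio of Cldn11 to Mal counts within each library (vertical axis), in PBS and KA mice at 24 hours and 2 weeks, for m6A and input libraries, each point 1 library. At 24 hours all KA input libraries and 4 of 5 KA m6A libraries lie above the PBS libraries, and at 2 weeks the groups separate in input and overlap in m6A.

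The pulldown itself was examined by setting m6A against input libraries. In PBS mice of both times, 7 of the 9 genes had a log2 ratio of m6A to input above 0 and 2 below, with a median of 0.16 against 0.055 for all genes, and edgeR called 0 of the 9 where it called 4.29% of 16212 genes. Of the 695 genes called, 334 were higher in m6A libraries, against 1234 of 1443 when libraries were scaled by total counts, where 7 of the 9 were again above 0 with a median of 0.34 against 0.24. With mouse as a block, over the PBS mice that gave both libraries, 4 of the 9 were above 0 with a median of -0.12 against -0.022, and 166 genes were called, 57 of them higher. The count of calls also turned on single libraries, from 192 (46 higher) without the input library of PBS mouse 3 at 2 weeks to 1736 (912 higher) without the m6A library of PBS mouse 4 at 2 weeks, and it moved by over 1.5 times without any library but the m6A ones of PBS mice 2 and 3. At an unadjusted P under 0.05 it found 1 of the 9, against 24.6% of all genes, and DESeq2 called 0. That 1 was Mog, which was lower in the pulldown by a log2 ratio of -0.50 (SE 0.22, adjusted P = 0.178 in edgeR, 95% CI -0.96 to -0.032). Mag had the highest ratio at 0.35, which became -0.12 with mouse as a block. Limma's voom, which called 49.8% of all genes here, called 2 of the 9, with Mog lower at -0.69 (adjusted P = 0.00958) and Mag higher at 0.71 (adjusted P = 0.0395).

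Whether KA altered the ratio of m6A to input was tested as an interaction. No myelin gene passed at either time, where edgeR called 0.0% of 22760 genes at 24 hours and 0.0% of 16141 at 2 weeks, and at an unadjusted P under 0.05 it found 0 of 9 at both times against 0.347% and 4.06%. DESeq2 and limma's voom also called 0 of the 9 at both times. At 24 hours the changes ran from -0.42 for Mbp to 0.77 for Opalin, with standard errors from 0.67 to 1.07, and 7 of 9 were above 0 with a median of 0.20 against 0.0042 for all genes. The 24-hour fit rested on 1 PBS input library, that of mouse 1. With mouse as a block, which left PBS mouse 1 and 3 KA mice, 1 of 9 was above 0. The median was then -0.26 against -0.039 for all genes, and Opalin stood at 0.18. Without the input library of KA mouse 8 the count was 3 of 9, with a median of -0.12. At 2 weeks 7 of 9 were below 0, with a median of -0.40 against -0.037 for all genes. The most negative were Mag at -1.13 (SE 0.63, adjusted P = 0.807 in edgeR), Cldn11 at -0.75 and Cnp at -0.67, and Ermn was the highest at 0.36. The mouse block put Mag at -0.65 (SE 0.38) and Ermn at 0.65 (SE 0.29, adjusted P = 0.875 in edgeR), and left 6 of 9 below 0 with a median of -0.26.

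The transcripts of these genes differ in how often they hold GGACT, a common sequence context of m6A, and in base composition. In the GENCODE canonical transcript of each gene, GGACT occurred 5 times in Mbp, 4 times in Ermn, 3 times in Mobp and in Opalin, 2 times in Mog, and 1 time in Cnp and in Mal. It occurred 0 times in Mag and in Cldn11. Per 1000 bases Mbp and Mobp stood at 2.32 and 1.92, against a median of 1.02 over the genes tested. GC content was 37.1% in Ermn, lower than in all but 0.993% of the genes tested, 57.8% in Mag and 55.8% in Cnp, against a median of 49.8%. The mean GC content of the counted transcripts ran from 46.9% to 50.1% over the m6A libraries.

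Pairs of the 9 genes varied together to very different degrees from library to library. Over the 19 m6A libraries the 36 pairwise Pearson correlations of log2 CPM ran from -0.35 to 0.85 with a median of 0.32, and 29 were above 0. Over the 13 input libraries they ran from -0.35 to 0.92 with a median of 0.46, and 31 were above 0. Mag and Cldn11 correlated at 0.70 in m6A and 0.92 in input, Mbp and Cnp at 0.85 and 0.82, Mog and Opalin at 0.84 and 0.62, and Mog and Mobp at 0.46 and 0.92. Ermn ran against Mag (-0.35 and -0.30) and Cldn11 (-0.26 and -0.35). These points share treatment, depth and library set, so the coefficients describe these libraries and carry no test.

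**Figure D5:**
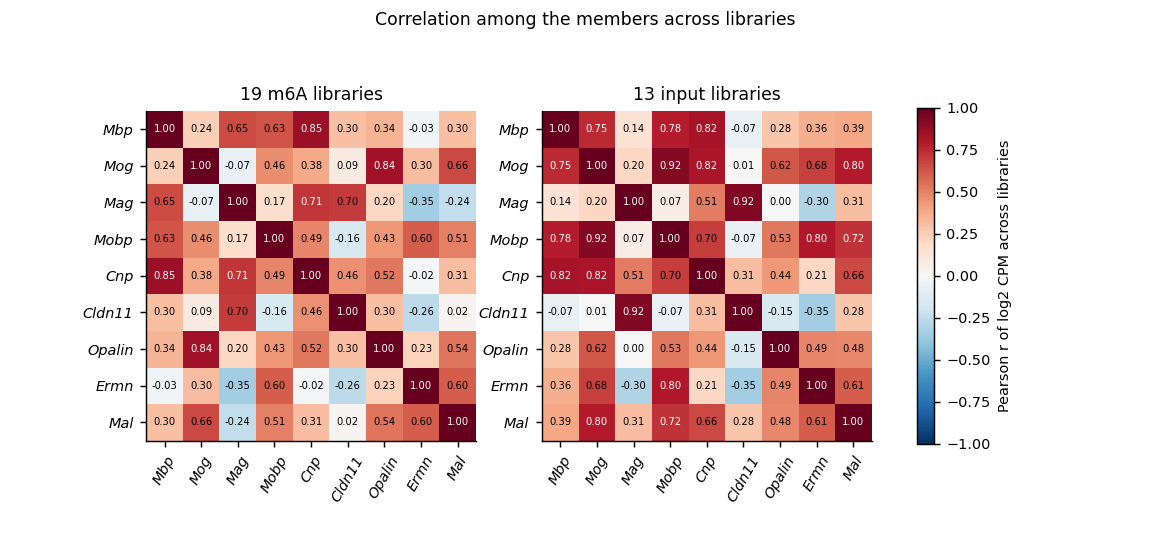
Pearson correlation of log2 CPM between each pair of the 9 myelin genes, over 19 m6A libraries and over 13 input libraries, with colour from negative to positive. Mag with Cldn11 and Mbp with Cnp are high in both assays, and Ermn is negative with Mag and Cldn11 in both.

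The genes whose pattern was most like the mean of the 9 were ranked the same way. Over the 19 m6A libraries and 17431 genes the first were Pllp (r = 0.813), Plekhh1 (0.789), Arsg (0.781), Car14 (0.706) and Gjb1 (0.703), followed by Csrp1, Msx1, Pip4k2a, Gm28661 and Glul at 0.702 to 0.660. Of these 10, Pllp, Plekhh1 and Gjb1 were in the list of other myelin genes. Over the 13 input libraries and 17635 genes the first were Sept4 (0.916), Slain1 (0.885), Cyth1 (0.878), Zeb2 (0.878) and Jph1 (0.867), followed by Ivd, Grin2a, Fam19a5, Gria1 and Fez1 at 0.854 to 0.849. Only Sept4 was in that list, and no gene was among the 10 in both assays.

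Beyond the 9, edgeR called 0 genes between KA and PBS mice in each list of related genes in all 4 comparisons. Of all genes tested, 58.0% and 49.8% had log2 fold changes above 0 in m6A libraries at 24 hours and 2 weeks. In input the shares were 65.9% and 52.4%. Among 30 other genes of myelin and mature oligodendrocytes, 12 of 30 were above 0 in m6A libraries at both times, with medians of -0.075 and -0.11, and 14 of 29 and 22 of 29 in input, with medians of -0.0085 and 0.24. An unadjusted P under 0.05 in edgeR was found for 3 and 1 of them in m6A, where 5.31% and 5.01% of all genes had one. In input it was found for 5 and 3, where 9.23% and 14.1% of all genes had one. Trf, which encodes the iron carrier transferrin and is made by mature oligodendrocytes and by the choroid plexus, had the smallest P at 24 hours in both assays, with log2 fold changes of 2.27 (SE 0.47, adjusted P = 0.210) in m6A and 2.09 (SE 0.64, adjusted P = 0.373) in input by edgeR. Next were Apod, a lipid carrier, at 1.41 in m6A and Anln, a myelin septin scaffold, at -1.13 in input. The 7 choroid plexus markers were all above 0 in the same comparisons, with medians of 1.19 in m6A and 0.73 in input and none at an unadjusted P under 0.05, and their part in the value of Trf was not tested.

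Of 12 genes of myelin lipid synthesis, 9 and 9 were above 0 in m6A libraries at 24 hours and 2 weeks and 8 and 10 in input. Of all genes tested, 58.0% and 49.8% were above 0 in m6A and 65.9% and 52.4% in input. Medians of the 12 lay between 0.020 and 0.19, and none of the 12 had an unadjusted P under 0.05. Sqle, an enzyme of cholesterol synthesis, had the smallest P in 3 of the 4 comparisons, at 0.44 and 0.36 in m6A and 0.61 in input at 24 hours. Fa2h, which hydroxylates the fatty acids of myelin galactolipids, had it in input at 2 weeks at 0.65 (SE 0.32, adjusted P = 0.379 in edgeR).

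Transcription factors of the oligodendrocyte lineage had opposite directions in the assays at 2 weeks, with 0 of 10 above 0 in m6A (median -0.59) and 8 of 10 in input (median 0.56). At 24 hours 7 of 10 and 8 of 10 were above 0, with medians of 0.091 and 0.79. Sox10, which drives myelin gene expression, and Myrf, the factor of myelinating oligodendrocytes, had the smallest P in input at 2 weeks, at 1.10 (SE 0.36, adjusted P = 0.267) and 0.74 (SE 0.25, adjusted P = 0.277) by edgeR. The change of the m6A-to-input ratio with KA at 2 weeks, fitted on the same libraries, had 1 of 10 above 0 with a median of -0.89, and none was called. Over all genes tested 47.0% were above 0, with a median of -0.037. St18, a zinc finger factor, had the smallest P at 24 hours in both assays, at -0.96 and -0.76.

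Genes of the node of Ranvier and the paranode had 4 and 2 of 10 above 0 in m6A libraries and 5 and 8 in input. For all genes tested the shares above 0 were 58.0% and 49.8% in m6A and 65.9% and 52.4% in input. An unadjusted P under 0.05 in edgeR was found for 1 and 0 of the 10 in m6A, against 5.31% and 5.01% of all genes. In input it was found for 2 and 4, against 9.23% and 14.1%. Cntnap2, an axonal adhesion molecule of the juxtaparanode, was at -0.70 in m6A and -0.70 in input at 24 hours and at -0.57 (adjusted P = 0.266 in edgeR) in input at 2 weeks, whereas Nfasc, which anchors paranodal loops and nodes, was at 0.67 (adjusted P = 0.242 in edgeR). Of 12 genes of precursors and newly formed oligodendrocytes, 3 and 5 were above 0 in m6A and 10 of 12 and 9 of 11 in input, beside the same shares of all genes. Pdgfra, the growth factor receptor of precursors, was the 1 of these with an unadjusted P under 0.05, at 0.45 in input at 2 weeks (adjusted P = 0.346 in edgeR).

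Markers of other cells were summed in the same libraries. In input libraries at 2 weeks, where Cldn11 separated the groups, the 9 microglial markers summed to 161 to 440.0 CPM in KA mice against 129 to 172 in PBS mice, and the 8 astrocyte markers to 3332 to 7732 against 2389 to 4118, both overlapping. The 7 thalamic markers summed to 128 to 167 CPM in KA mice against 180.1 to 245 in PBS mice, without overlap. Most of them did not go the way of the sum. Of the 6 tested, 4 had log2 fold changes above 0, with a median of 0.095 and a range of -1.02 to 0.26. Among all single genes tested, 7.51% did not overlap in that comparison. All 9 microglial markers had log2 fold changes above 0 there, with a median of 0.84, and 5 had an unadjusted P under 0.05 (14.1% of all genes). In m6A libraries at 24 hours the 8 markers of excitatory neurons summed to 1114 to 3627 CPM in KA against 2334 to 5016 in PBS mice, and the 7 choroid plexus markers to 26.0 to 905 against 42.9 to 598. The 7 endothelial markers summed there to 372 to 487 CPM against 240.1 to 295, without overlap, where 4.61% of all single genes did not overlap. Of these 7, 5 were above 0, with a median of 0.22, and 1 had an unadjusted P under 0.05 (5.31% of all genes). In input at 24 hours, with 1 control, all 7 were above 0 (65.9% of all genes), with a median of 1.72. Of them, 3 had an unadjusted P under 0.05 (9.23% of all genes). No defining marker of these cells was at 0 in a whole group. The part of these cells in the myelin gene values was not tested.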

How the data were processed

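Hippocampal RNA of single mice was sequenced as input (total RNA) or m6A-immunoprecipitated libraries with a stranded total RNA kit. The deposited values are counts of reads per gene symbol and lane, made by the authors without normalization. Per the submitters' processing notes the build was mm10. Which aligner and counting program were run, and whether strand was used, is not given in the sources used here. Reads of overlapping genes may therefore have been split. Summing 4 lanes per library turned 140 columns into 35 libraries, and another 8 columns, of mice without such a library in the labels, were not used. Column names give the assay of 8 libraries. For the other 27 it was inferred from the numeric prefix (3, 4 or 5 for m6A). Treatment, time and mouse came from the labels. No 2 libraries held identical counts.

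Input libraries under 100000 counts were left out. Tests used edgeR 4.0.16 in R 4.3.3 on the counts (TMM scaling, filterByExpr by group, robust quasi-likelihood F test, Benjamini-Hochberg adjustment over all genes tested, threshold 0.05). Only the groups compared entered a fit, except that input at 24 hours used all 13 input libraries, as it had 1 control. The standard error is the log2 fold change over the square root of F, and intervals use the t quantile of the fit. DESeq2 1.42.0, limma 3.58.1 (voom with quality weights), other scalings and filters, library set and GC content, and leaving out each library were alternatives. The procedure was tested on simulated data. Tables and plots used Python 3.11.15, pandas 2.3.3, numpy 2.4.6 and matplotlib 3.10.9. Depth limits low genes most: Opalin rested on 7 counts in its thinnest m6A library, and such limits cover counting error only.

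The 9 genes, the gene lists and the tests were chosen with earlier results of these data known. The text names all 9, up to 3 genes of a list by smallest P, and the 10 genes most correlated with the mean standardised log2 CPM (prior count 2) of the 9. Input and m6A libraries of 1 mouse come from the same animal by their labels. Over 12 such mice, all but the lone input control at 24 hours, the correlation of deviations from group means ran from -0.04 to 0.88 (median 0.36), and was highest with the mouse's own library for 9. Upstream windows and motif shares came from RefSeq, GRCm38.p6. The value of 1 gene of the related lists is not reported here.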

Additional observations from a re-analysis of the deposited data

Results flagged for a closer look

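Among the 36 sets of values formed by the 9 genes and the groups of 4 to 10 libraries, 1 library stood apart by Dixon's test at the 95% level, which flags about 1 in 20 groups by chance. Mal in the input library of KA mouse 21 at 2 weeks had 260.3 CPM, against 111 to 153 in the other 5 KA mice, with a gap of 0.717 of the group's range. Without this mouse the log2 fold change of Mal in input libraries at 2 weeks was 0.0071, against 0.22 with it. The m6A library of the same mouse had the highest Mal value of its group as well.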

How the results depend on the processing

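At 24 hours the input comparison rests on a single control. None of the 9 genes was called in any of 93 counts with a library left out, and 64 of 68 counts under other settings also held 0. The exceptions were limma's voom, with 1 of the 9 in m6A libraries at 24 hours, 1 in input at each time, and 2 in m6A against input. Of 36 differences between KA and PBS, 17 kept their sign in every alternative. Over all genes, DESeq2 called 132, 18, 165 and 113 and voom 1121, 2, 1057 and 357 in m6A at 24 hours and 2 weeks and input at 24 hours and 2 weeks, where edgeR called 1, 0, 0 and 0. Without libraries over 15% mitochondrial (chosen after seeing the data) edgeR called 45 and 180 at 24 hours in m6A and input, and within set 4 it called 356. Without 1 library it called 0 to 45 genes in m6A at 24 hours, 0 to 1 at 2 weeks, 1 to 180 in input at 24 hours and 0 to 1 at 2 weeks, the 45 and the 180 both without KA mouse 8, and 192 to 1736 for m6A against input. The other settings gave 0 to 74 calls in m6A at 24 hours, 0 to 2 at 2 weeks, 0 to 75 in input at 24 hours and 0 to 4 at 2 weeks. For the change between time points DESeq2 called 5 and voom 62 in place of 1, for the change of m6A over input the mouse block called 8 at 24 hours and DESeq2 2 at 2 weeks in place of 0, and for m6A against input DESeq2 called 1971, voom 8077 and total-count scaling 1443 in place of 695.

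Log2 fold changes, none of them called by edgeR, changed sign as follows, and the cause was not tested. In m6A libraries at 24 hours voom gave Mbp 0.075, Mog 0.19, Mobp 0.35, Cnp 0.032 and Opalin 0.33, and Mobp was 0.20 with library set as a block and 0.20 within set 4. In m6A libraries at 2 weeks voom gave Mobp 0.086 and Cldn11 -0.080, the set block gave Mbp 0.11, Mag 0.32, Mobp 0.18 and Cnp 0.19, set 5 alone gave 0.12, 0.35, 0.20 and 0.21 for the same genes, and Mobp was 0.049 without libraries over 15% mitochondrial. In input at 24 hours Mbp was 0.30 with voom, 0.038 with the set block and 0.39 without libraries over 15% mitochondrial, and with all labelled input libraries, those under 100000 counts included, Mobp was 0.17 and Ermn 0.094. In input at 2 weeks the set block gave Mobp 0.022 and Opalin 0.20, the set with both treatments gave 0.025 and 0.20, and GC content as a covariate gave Mobp 0.080, Cnp -0.012 and Ermn 0.0085. The block, set and GC fits for input and the GC fits for m6A were also added after seeing the data.

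With 1 library left out, values ranged from -0.077 to 0.58 for Ermn and -0.53 to 0.26 for Opalin in m6A at 24 hours, and at 2 weeks from -0.17 to 0.26 for Cldn11, -0.012 to 0.34 for Ermn and -0.23 to 0.062 for Mobp. In input they ranged from -0.47 to 0.39 for Mbp at 24 hours and from -0.12 to 0.092 for Mobp and -0.22 to 0.050 for Opalin at 2 weeks, and for the change of m6A over input at 24 hours from -0.86 to 0.076 for Mbp. With mouse as a replicate block, m6A against input in PBS mice gave Mag -0.12 against 0.35, edgeR called 166 genes in place of 695, and no call on the 9 genes changed.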

Other observations

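Of 10 genes that published work reports as raised in disease-associated oligodendrocytes, 9 had log2 fold changes above 0 between KA and PBS mice in m6A libraries at 24 hours (median 1.78, against 0.083 for all genes) and 9 in input (median 1.73, against 0.27). At 2 weeks 8 of 9 tested were above 0 in m6A (median 0.73, against -0.0013) and 9 of 9 in input (median 0.99, against 0.017). edgeR called 0 in all 4 comparisons, and 7, 3, 5 and 6 had an unadjusted P under 0.05 in m6A at 24 hours and 2 weeks and input at 24 hours and 2 weeks, against 5.31%, 5.01%, 9.23% and 14.1% of all genes tested. Of 9 microglial markers 7, 8, 7 and 9 were above 0 in the same comparisons, and 1, 3, 0 and 5 had an unadjusted P under 0.05. Klk6, a secreted protease, had the smallest P in m6A at 24 hours, at 3.96 (SE 0.55, adjusted P = 0.0830 in edgeR), followed by Anxa2, a membrane-binding annexin, at 2.26 and Cd63, a tetraspanin of endosomes, at 1.89. In input at 24 hours Anxa2 was at 2.72, Cd63 at 2.07 and Klk6 at 5.23. C4b, a complement component, had the smallest P at 2 weeks in both assays, at 1.96 in m6A and 2.27 (SE 0.51, adjusted P = 0.242 in edgeR) in input. These genes are also expressed by reactive astrocytes, microglia or vascular cells, and which cells the reads came from was not tested.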
